A study of Mus musculus with 2 samples.

Results

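The 10 genes described here are members of the Nr4a, Egr and AP-1 families of immediate-early transcription factors, namely Nr4a1, Nr4a2, Nr4a3, Egr1, Egr2, Fos, Fosb, Jun, Junb and Jund. They were taken by gene symbol, each matched 1 row of the 32285 genes in the count matrices, and all 10 are accounted for in every gate. The scRNA-seq data came from a mouse model of acute graft-versus-host disease (aGvHD), in which irradiated BALB/c recipients were given C57BL/6 bone marrow depleted of T cells together with wild-type C57BL/6 splenic T cells (allo-HCT). Donor T cells were sorted from recipient spleens as TCRβ+ CD45+ cells with H2Kb and without H2Kd, pooled over several animals, and made into 1 library at day +7 and 1 at day +14. The libraries carry PBS in their names, no genetic alteration is given for either, and neither a sample without transplantation nor one of untransplanted T cells was analysed here. With 1 library per day there is no replicate check and no test: intervals below are 95% intervals that cover counting error only, and day cannot be told apart from library.

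These genes encode DNA-binding factors whose transcripts appear within minutes to hours of a signal, before new protein has to be made, and mostly disappear again soon after. In T cells, engagement of the T cell receptor (TCR) raises the Nr4a and Egr genes through calcium, NFAT and the Ras-MAPK path, and Nr4a1 (Nur77) is widely used as a reporter of recent TCR signaling. Egr2 is linked to anergy and Nr4a factors to exhaustion in chronically stimulated T cells. Fos and Fosb proteins pair with Jun, Junb or Jund to form AP-1, which acts with NFAT on cytokine genes. AP-1 genes also answer to growth factors, stress and cell handling, and Fos and Jun are abundant in many myeloid cells.

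The start regions of these genes differ in the elements they hold, and 4 of them are shown because Nr4a1, Nr4a2 and Egr2 stood apart from Fosb in the results that follow. The windows are the 250 bases before the RefSeq start on build GRCm38.p6, the assembly that mm10 corresponds to, and they were available for 9 of the 10 members, all but Egr1. The motifs searched on both strands were the EGR site GCGNGGGCG, the AP-1 site TGANTCA, the CRE TGACGTCA, the NBRE AAAGGTCA (the element of Nr4a proteins) and the CArG box of serum response factor. Capitals mark the match, and the whole window is printed for Nr4a1 (chr15:101266596-101266845, plus strand) and Nr4a2 (chr2:57124004-57124253, minus strand), but only 30 bases around the match for Egr2 (chr10:67537787-67537816, plus strand) and Fosb (chr7:19310076-19310105, minus strand).
Nr4a1: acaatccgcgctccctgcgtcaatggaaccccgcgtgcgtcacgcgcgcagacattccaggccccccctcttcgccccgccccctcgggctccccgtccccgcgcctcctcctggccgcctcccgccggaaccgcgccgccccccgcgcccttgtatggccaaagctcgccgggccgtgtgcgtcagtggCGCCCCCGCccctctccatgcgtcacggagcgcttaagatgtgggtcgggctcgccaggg
Nr4a2: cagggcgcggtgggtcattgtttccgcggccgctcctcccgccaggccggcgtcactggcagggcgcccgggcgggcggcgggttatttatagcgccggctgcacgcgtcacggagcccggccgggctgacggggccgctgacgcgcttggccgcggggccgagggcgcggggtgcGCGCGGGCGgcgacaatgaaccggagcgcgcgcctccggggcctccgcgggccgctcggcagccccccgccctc
Egr2: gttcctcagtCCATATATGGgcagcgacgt
Fosb: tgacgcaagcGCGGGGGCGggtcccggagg
On the GENCODE M21 annotation of GRCm38 the gene bodies of these 4 are at chr15:101254269-101274795 (Nr4a1, plus strand), chr2:57106830-57124003 (Nr4a2, minus strand), chr10:67535475-67542188 (Egr2, plus strand) and chr7:19302696-19310051 (Fosb, minus strand). The Nr4a1 window lies inside its gene body, before an inner RefSeq start, the Egr2 stretch also lies inside its gene body, and the Nr4a2 and Fosb sequences lie upstream of theirs. Nr4a1, Nr4a2 and Fosb each held 1 EGR site, found in 4.70% of all 32851 windows of that length, with the Nr4a1 match on the opposite strand. Egr2 held a CArG box, found in 1.47% of windows, in 4 of its 5 annotated windows, which overlap in part. The box was not the same in all of them. The match shown, CCATATATGG, was in the overlapping windows, and the window from chr10:67537316 held CCTTTTTTGG. The AP-1 site, the CRE and the NBRE were in 6.75%, 1.55% and 1.34% of all windows and in none of the members' windows, and none of the 5 motifs was in those of Nr4a3, Fos, Jun, Junb or Jund. The Jund window (chr8:70697489-70697738) ends well before its gene body, which starts at chr8:70698949, so the bases just before that start were not scanned. Such a match is a description of letters and was not tied to binding.

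After removal of barcodes with fewer than 500 or more than 7500 genes or over 15% mitochondrial UMIs, 7179 cells remained at day +7 and 7794 at day +14, with medians of 9210 and 8144 UMIs per cell. Only 17 barcode sequences occurred in both libraries. The 10 genes together made up 0.0698% of UMIs at day +7 and 0.0798% at day +14. Cells were gated by their own UMIs, and levels are UMIs of a gene summed over a gate and scaled to 1000000 UMIs of that gate (CPM). CD8 T cells were T cells in which Cd8a or Cd8b1 but not Cd4 was detected, and the 5% of them with the largest share of UMIs from Ccl1, Ccl3, Ccl4 and Xcl1 were called chemokine-high. There were 133 chemokine-high CD8 cells at day +7 and 466 at day +14, of which 58 and 171 lay within 20% of the cut, against 5843 and 5520 other CD8 cells. Conventional CD4 T cells (a UMI of Cd4, none of Cd8a, Cd8b1 or Foxp3) numbered 458 and 695, myeloid cells 77 and 98, and erythroid cells 114 and 27. The 6 TCR-complex genes of the T list were detected in each T cell gate, at 5190 to 8252 CPM in sum. The myeloid list reached 185388 and 202249 CPM in the myeloid gate, although the sort was for TCRβ+ cells, and Cd8a and Cd8b1 were also detected there (243 and 198 CPM in sum). Cells of the T gates that held UMIs of both Cd4 and Cd8 genes, or of neither, were in none of these gates.

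Nr4a2 was the member with the clearest difference between days. In other CD8 T cells it was at 34.8 CPM (33.5 to 36.3) at day +7 and 87.8 CPM (85.5 to 90.2) at day +14, a 2.52-fold higher level (log2 ratio 1.33, 1.26 to 1.40). Nr4a2 was also higher at day +14 in chemokine-high CD8 cells, at 158 against 364 CPM (2.31-fold, 2.01 to 2.65), and in conventional CD4 cells, at 23.0 against 62.6 CPM (1.45, 1.13 to 1.78). The 3 T cell gates thus gave ratios of Nr4a2 between 2.31-fold and 2.72-fold, with overlapping intervals. In the myeloid gate, at 14.2 and 21.2 CPM, the interval of the Nr4a2 ratio held 0 (0.58, -0.43 to 1.63). Among other CD8 cells with at least 4000 UMIs (5743 and 5073), each thinned to 4000, Nr4a2 was detected in 11.5% at day +7 and 24.1% at day +14. With all UMIs, and cells under 4000 UMIs included, it was detected in 25.4% and 40.8%. The erythroid gate was taken as a comparison although it held Jun, Junb and Jund transcripts of its own. At day +7 it gave 0.980% for Nr4a2 after thinning (medians of 35102 UMIs there and 9303 in other CD8 cells before thinning). The day +7 Nr4a2 share of other CD8 cells stood above that. At day +14 the erythroid gate held 27 cells, with Nr4a2 at 85.9 CPM from 17 UMIs, against 6.15 CPM at day +7. The interval of that day +14 level held the 87.8 CPM of other CD8 cells. The higher Nr4a2 at day +14 was thus not confined to the T cell gates. The T list was also higher in the erythroid gate at day +14 (330 against 2198 CPM), and its part was not tested.

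The other Nr4a genes did not share this difference. Nr4a1 measured 8.58 CPM on day +7 and 10.4 CPM on day +14 in other CD8 cells (log2 ratio 0.28, 0.11 to 0.44), and at 55.5 and 56.2 CPM in chemokine-high cells (0.02, -0.34 to 0.39). Nr4a3 was at 3.30 and 3.43 CPM in other CD8 cells (0.05, -0.22 to 0.33), and was lower at day +14 in chemokine-high cells, at 42.2 against 26.8 CPM (-0.66, -1.10 to -0.20). In conventional CD4 cells neither Nr4a1 (15.1 and 15.8 CPM) nor Nr4a3 (27 and 20 UMIs) differed between days beyond counting error. The Nr4a1 result there depended on the gate, with a log2 ratio of 0.07 in the main values and -0.65 with Cd4 and Cd8 gates at 2 UMIs. The ratios have to be read against all genes: the median log2 ratio of all genes tested between days was 0.19 in other CD8, 0.16 in chemokine-high and 0.16 in conventional CD4 cells. Relative to that median, Nr4a2 was still higher at day +14 by 1.15, 1.04 and 1.29, while Nr4a1 in other CD8 cells came to 0.09, and Nr4a3 there (-0.13) and Nr4a1 in chemokine-high cells (-0.14) turned below 0. The Nr4a1 ratio in other CD8 cells also turned below 0 with cells thinned to 4000 UMIs (-0.04) and in the less cycling cells (-0.16). For Nr4a3 in other CD8 cells the thinned ratio was -0.52, that in the less cycling cells -0.11 and that by the mean of per-cell CPM -0.04. Its sign between days thus changed with the processing, and the cause was not tested.

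Both Egr genes were higher at day +14 in each CD8 gate taken as a whole. Egr1, a zinc finger factor of the Ras-MAPK response, measured 6.84 CPM on day +7 and 14.2 CPM on day +14 in other CD8 cells (log2 ratio 1.06, 0.90 to 1.22), and at 25.1 and 75.6 CPM in chemokine-high cells (1.59, 1.11 to 2.11). Egr2 was sparse outside the chemokine-high gate: 36 UMIs at day +7 and 191 at day +14 in other CD8 cells, or 0.519 and 3.11 CPM (2.58, 2.06 to 3.14). In chemokine-high cells Egr2 was at 21.1 and 40.1 CPM (0.93, 0.38 to 1.51). The gates thus differed in which Egr gene had the larger day ratio. Conventional CD4 cells had a higher Egr2 at day +14, at 5.11 against 16.2 CPM (1.67, 0.99 to 2.39), while Egr1 stood at 21.5 and 24.4 CPM (0.18, -0.21 to 0.58). Thinned to 4000 UMIs, 2.96% of other CD8 cells had a UMI of Egr1 at day +7 and 4.87% at day +14, and 0.192% and 1.06% had a UMI of Egr2 (6.57%, 11.2%, 0.496% and 2.77% with all UMIs). In the erythroid gate 0.980% of thinned day +7 cells had a UMI of Egr1 and 0 of 102 had one of Egr2, which allows up to 3.55% (Clopper-Pearson), so the Egr2 shares of other CD8 cells cannot be told from that of the erythroid gate.

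Fos and Fosb, the Fos-type partners of AP-1, went the other way. Fos measured 14.8 CPM on day +7 and 6.59 CPM on day +14 in other CD8 cells (log2 ratio -1.17, or 0.445-fold), and Fosb at 15.6 and 7.06 CPM (-1.14, -1.31 to -0.98). Both were also lower at day +14 in chemokine-high cells, Fos at 27.1 against 14.3 CPM (-0.92, -1.49 to -0.33) and Fosb at 14.5 against 6.45 CPM (0.444-fold, 0.25 to 0.802). Of the 41 Fos UMIs in the day +7 chemokine-high gate, 15 came from 1 cell, and without the cell richest in Fos of each day the ratio was -0.40 (-1.08 to 0.31), an interval that holds 0. In conventional CD4 cells Fos was lower at day +14, from 94 UMIs against 58 (-0.79, -1.28 to -0.30), and the interval for Fosb held 0 (17.9 and 13.6 CPM; -0.39, -0.88 to 0.08). Within other CD8 cells split at the median share of UMIs from 10 cell cycle genes, Fos was lower at day +14 in the more cycling cells (-0.91, -1.13 to -0.69) and in the less cycling cells (-1.45, -1.73 to -1.18). With 1 CPM added, neither Fos nor Fosb reached 2-fold in the more cycling cells.

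The Jun genes, whose proteins form dimers with Fos proteins or with each other, differed little between days. In other CD8 cells Jun was at 39.7 and 43.9 CPM (log2 ratio 0.15, 0.07 to 0.22), Junb at 218 and 189 CPM (-0.20, -0.24 to -0.17) and Jund at 342 and 349 CPM (0.03, 0.00 to 0.06). Relative to the median of all genes Jun came to -0.04, Jund to -0.16 and Junb to -0.39. Junb was higher at day +14 in conventional CD4 cells, at 298 against 379 CPM (0.35, 0.25 to 0.45), and lower at day +14 in chemokine-high cells, at 308 against 241 CPM (-0.36, -0.51 to -0.20). In chemokine-high cells Jun was at 27.1 and 40.1 CPM (0.57, 0.08 to 1.09), or 1.48-fold, and in the other two T cell gates its ratio was nearer to 1. Jund, which is expressed constitutively in many tissues, stayed within 0.19 of 0 on the log2 scale in all 3 T cell gates.

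**Figure D1:**
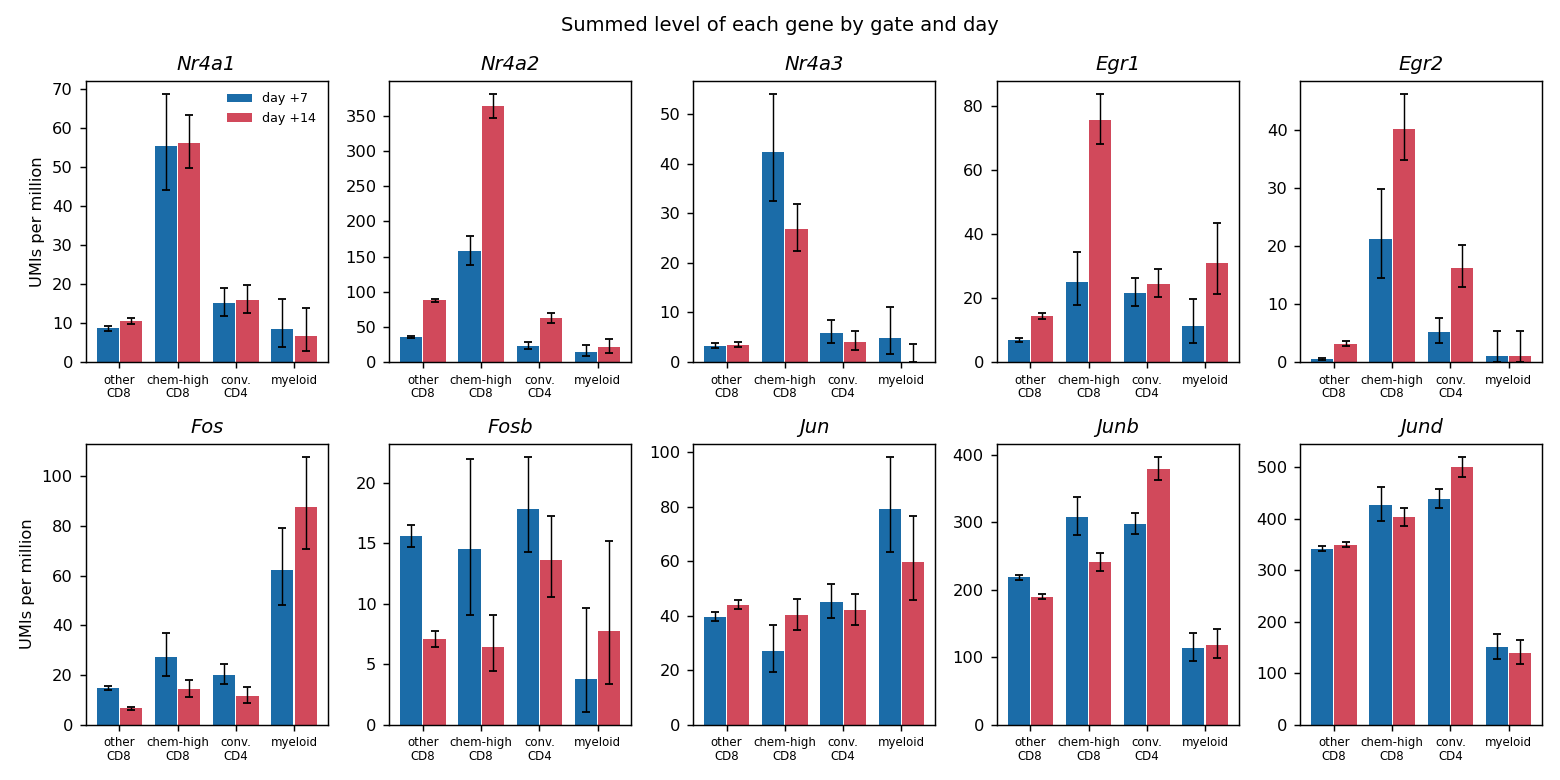
Level of each gene (y axis, CPM, own scale for each gene) in 4 gates at day +7 (blue) and day +14 (red); bars are summed UMIs of 1 library per day, and error bars are 95% Poisson intervals. Nr4a and Egr genes are highest in chemokine-high CD8 cells, for example Nr4a2 at 364 CPM at day +14, whereas Fos is highest in the myeloid gate at 62.4 and 87.8 CPM. For Egr1 at day +7 the intervals of chemokine-high CD8 (17.8 to 34.4 CPM) and conventional CD4 cells (17.5 to 26.1 CPM) overlap.

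A call across all genes was made where the ratio, with 1 CPM added to each side, reached 2-fold in genes whose mean level over the 2 groups compared was 10 CPM or more. Over all kept cells 8 of the 10 members passed that filter, and Nr4a2 and Egr1 were called higher at day +14 (1.85% of all genes tested were) and 0 lower (1.26%), Egr1 having passed through day +14 alone. In other CD8 cells 7 members passed, and Nr4a2 was called higher at day +14 (1.75% of all 6838 genes tested were) and Fos and Fosb lower (1.32% of all genes were). Fos and Fosb passed the filter only through day +7, where they were high, so their calls are descriptions and are not set against that share. Nr4a1, Nr4a3 and Egr2 were under the filter there. In chemokine-high cells all 10 passed, with Nr4a2 and Egr1 called higher (background 3.65%) and Fosb lower (1.09%), which had passed through day +7 alone. In conventional CD4 cells 9 passed, with Nr4a2 and Egr2 called higher (3.59%) and 0 lower (1.17%), Egr2 having passed only through day +14, where it was high. In the myeloid gate 6 passed, with Egr1 called higher (5.62%) and 0 lower (3.11%). The median log2 ratio of the members that passed was 0.03 in other CD8, -0.03 in chemokine-high and 0.18 in conventional CD4 cells, so as a group the members lay on both sides of 0.

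**Figure D2:**
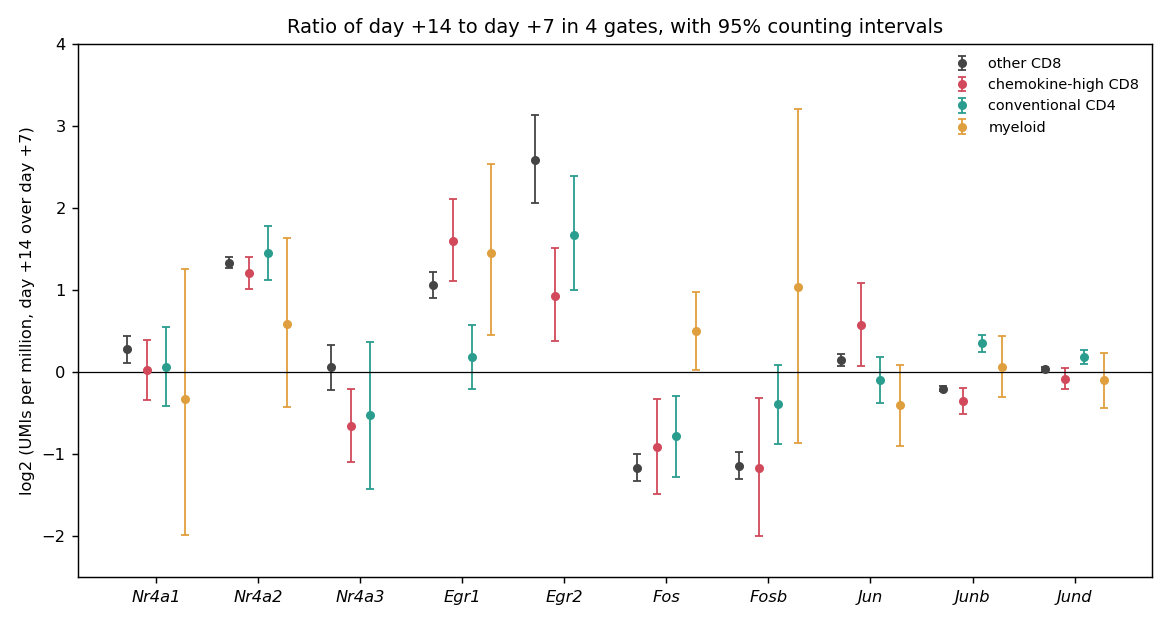
Log2 ratio of day +14 over day +7 (y axis) for each of the 10 genes in other CD8, chemokine-high CD8, conventional CD4 and myeloid gates, with 95% counting intervals; genes with under 10 UMIs over both days in a gate are not drawn. Nr4a2 lies above 0 in all 3 T cell gates (1.33 in other CD8 and 1.45 in conventional CD4 cells), and Fos and Fosb lie below 0 in both CD8 gates, Fos in the chemokine-high gate resting on 1 cell of day +7.

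The Nr4a and Egr genes were higher in the chemokine-high gate at each day. At day +7 Egr2 was at 0.519 CPM in other CD8 cells and 21.1 CPM in chemokine-high cells, 40.7-fold higher (24.5 to 67.4). Nr4a3 was 12.8-fold higher (3.30 against 42.2 CPM), Nr4a1 6.46-fold (8.58 against 55.5 CPM), Nr4a2 4.53-fold (34.8 against 158 CPM) and Egr1 3.67-fold (6.84 against 25.1 CPM). At day +14 the order was Egr2 at 12.9-fold, Nr4a3 at 7.81-fold, Nr4a1 at 5.40-fold, Egr1 at 5.31-fold and Nr4a2 at 4.14-fold. These 5 genes were the only members past 2-fold at day +7, and Fos joined them at day +14 (6.59 against 14.3 CPM, 2.17-fold, 1.66 to 2.80). The intervals of the neighbouring Nr4a1 and Egr1 ratios at day +14 overlapped (4.68 to 6.23 and 4.69 to 6.00), and those of Egr2 and Nr4a3 did not overlap at either day. Of all genes tested, 1.63% were 2-fold higher in the chemokine-high gate at day +7 and 0.483% (34 of 7037) at day +14. All 10 members passed the level filter at day +7 and 9 at day +14, but Nr4a1, Nr4a3, Egr1 and Egr2 at day +7 and Nr4a3, Egr2 and Fos at day +14 passed it through the chemokine-high gate alone, so the count of those called is a description. No member was 2-fold lower (background 1.10% and 0.0711%).

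Fosb, Jun, Junb and Jund differed by less than 2-fold between the CD8 gates at each day. Junb was at 218 against 308 CPM at day +7 (log2 ratio 0.50, 0.36 to 0.63) and 189 against 241 CPM at day +14 (0.35, 0.26 to 0.43). Jund gave 0.32 and 0.21, and the Fosb intervals held 0 at each day (-0.10, -0.78 to 0.50, and -0.13, -0.70 to 0.39). Jun was lower in chemokine-high cells at day +7 (39.7 against 27.1 CPM; -0.55, -1.03 to -0.11), and at day +14 its interval held 0 (-0.13, -0.35 to 0.08). Fos at day +7 gave 0.87 (0.38 to 1.32), which came to 0.23 (-0.39 to 0.79) without the cell that held 15 of its 41 UMIs, and at day +14, at 1.12 (0.73 to 1.49), it stood nearer to the Egr and Nr4a genes than to the other AP-1 genes. The Nr4a and Egr differences did not rest on single cells in the same way. Without the chemokine-high cell with the most UMIs of each gene, the day +7 log2 ratios were 2.39 for Nr4a1 (17 of 84 UMIs left out), 4.76 for Egr2 (11 of 32), 1.56 for Egr1, 3.55 for Nr4a3 and 2.10 for Nr4a2. In the less cycling CD8 cells of day +7, however, the Egr1 ratio was 0.96 (0.06 to 1.73) and did not reach 2-fold.

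Between days, the excess in chemokine-high cells differed for 3 members. The log2 ratio of chemokine-high over other CD8 cells was smaller at day +14 for Egr2 by 1.66 (0.91 to 2.40) and for Nr4a3 by 0.71 (0.20 to 1.22), and larger for Egr1 by 0.53 (0.02 to 1.04). For Nr4a1 and Nr4a2 the intervals of this difference held 0. The chemokine-high gate was 2.23% of CD8 cells at day +7 and held 47.1% (34.8 to 59.6) of all Egr2 UMIs of CD8 cells, 21.8% of Nr4a3, 12.4% of Nr4a1 and 9.01% of Nr4a2. At day +14 it was 7.78% of CD8 cells and held 51.0% (45.9 to 56.1) of Egr2, 38.7% of Nr4a3, 30.4% of Nr4a1, 29.98% of Egr1 and 25.1% of Nr4a2. For Fosb these shares were 1.99% (1.25 to 3.004) and 6.87% (4.74 to 9.56), intervals that hold the shares of cells, and for Jun 1.47% (1.06 to 1.99), under the share of cells, and 6.86% (5.97 to 7.84).

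For most of these genes the level also differed between cells below the 5% cut. CD8 cells of both libraries were ordered by their share of chemokine UMIs into the lowest 50%, the next 30%, 15% and 4%, and the top 1%. Nr4a2 went from 28.1 CPM in the lowest bin through 40.5, 67.1 and 129 to 244 CPM in the highest at day +7, and from 49.7 through 89.8, 164 and 321 to 606 CPM at day +14. Egr2 went from 0.359 to 26.2 CPM at day +7 and from 0.860 to 84.9 CPM at day +14, and at day +7 most of the difference lay at the 5% cut itself, between the 15% bin and the 4% bin (1.48 against 19.4 CPM). Nr4a1 ended at 128 and 116 CPM and Nr4a3 at 83.9 and 76.8 CPM, and in the top bin their intervals overlapped between days. Nr4a2 was higher at day +14 than at day +7 in every bin, the lowest included. Egr1 in the lowest bin was at 5.85 CPM (5.16 to 6.61) at day +7 and 7.18 CPM (6.20 to 8.27) at day +14, with overlapping intervals. In the next bin Egr1 was at 6.92 and 15.3 CPM. The Egr2 intervals of the lowest bin also overlapped between days (0.205 to 0.583 and 0.545 to 1.29 CPM). Junb also increased from bin to bin at each day (201 to 341 CPM and 171 to 290 CPM). Fos was higher in each bin than in the one before at day +14 (5.05, 7.20, 8.75, 11.1 and 32.3 CPM), and at day +7 it ran 12.9, 18.1, 18.8, 34.4 and 5.24 CPM. Fosb did not order with the bins at either day, and Jun was lowest in the top bin at day +7 (18.3 CPM). The top bin held 34 cells at day +7 and 86 at day +14.

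**Figure D3:**
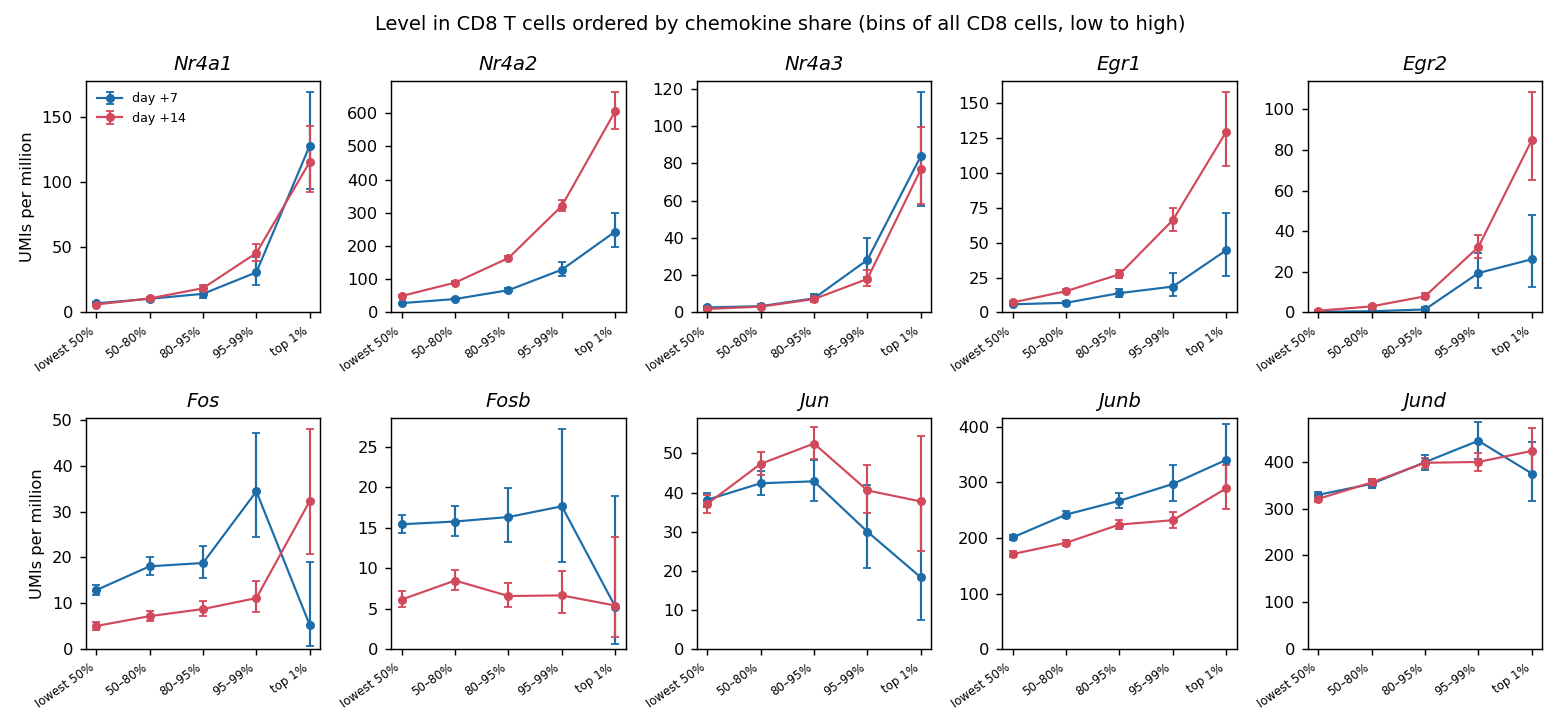
Level of each gene (y axis, CPM) in CD8 T cells binned by the share of their UMIs from 4 chemokine genes (x axis, low to high), at day +7 (blue) and day +14 (red), with 95% Poisson intervals. Nr4a1 to Egr2 climb across the bins, Nr4a2 reaching 244 and 606 CPM, as does Fos at day +14 (to 32.3 CPM), while Fosb and Jun do not.

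Per cell, most CD8 cells showed few of these genes. After thinning to 4000 UMIs, 17.7% of other CD8 cells at day +7 and 29.5% at day +14 had a UMI of at least 1 Nr4a or Egr member, against 56.8% and 72.3% of chemokine-high cells. At least 3 of these 5 genes were seen together in 0.0871% and 0.552% of other CD8 cells and in 5.30% and 10.4% of chemokine-high cells. A UMI of Fos, Fosb or Jun was found in similar shares of the gates, 22.1% and 19.4% of other CD8 cells and 18.2% and 19.4% of chemokine-high cells. The erythroid gate at day +7 gave 2 of 102 cells for the Nr4a and Egr members and 16.7% (10.0 to 25.3) for Fos, Fosb and Jun, an interval that holds the day +7 shares of both CD8 gates.

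Which genes appeared in the same cells was described in other CD8 cells by comparing the level of a gene in cells with a UMI of another gene with that in cells without. Among the Nr4a and Egr genes, the log2 ratios of all ordered pairs lay between 0.79 and 2.54 at day +14 and between -0.02 and 3.03 at day +7. Nr4a1 was at 49.4 CPM in the 154 day +14 cells with a UMI of Nr4a3 and 8.48 CPM in the 5366 without (log2 ratio 2.54, 2.26 to 2.81), and at 15.2 against 8.24 CPM at day +7 (0.89, 0.45 to 1.30). Egr1 was at 52.5 CPM in day +14 cells with a UMI of Egr2 and 12.4 CPM in those without (2.08, 1.81 to 2.33), and at 53.2 against 6.52 CPM at day +7, when only 29 cells had Egr2. Nr4a3 was at 15.1 against 2.88 CPM in day +14 cells with and without Egr2 (2.39, 1.87 to 2.88). Fos and Fosb were also high in each other's cells: at day +7 Fosb was at 31.7 CPM in cells with a UMI of Fos and 12.6 CPM in those without (1.33, 1.14 to 1.51), and Fosb was also higher in cells with Jun (0.78, 0.61 to 0.96). The families were not apart in this measure. Fos was higher in day +14 cells with a UMI of Nr4a1 (0.75, 0.39 to 1.11), Nr4a2 (0.57, 0.27 to 0.86) or Egr1 (0.43, 0.05 to 0.79), and Nr4a1 was higher in cells with Fos (0.91, 0.58 to 1.22). Fosb was higher in day +14 cells with Egr1 (0.44, 0.08 to 0.79), and its intervals held 0 for Nr4a1 (-0.24, -0.70 to 0.19) and Nr4a2 (0.16, -0.12 to 0.44). Cells with a UMI of any member were deeper, with a median of 15299.5 UMIs in day +14 cells with Nr4a3 against 8573.5 without. The part of depth in these ratios was not tested.

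**Figure D4:**
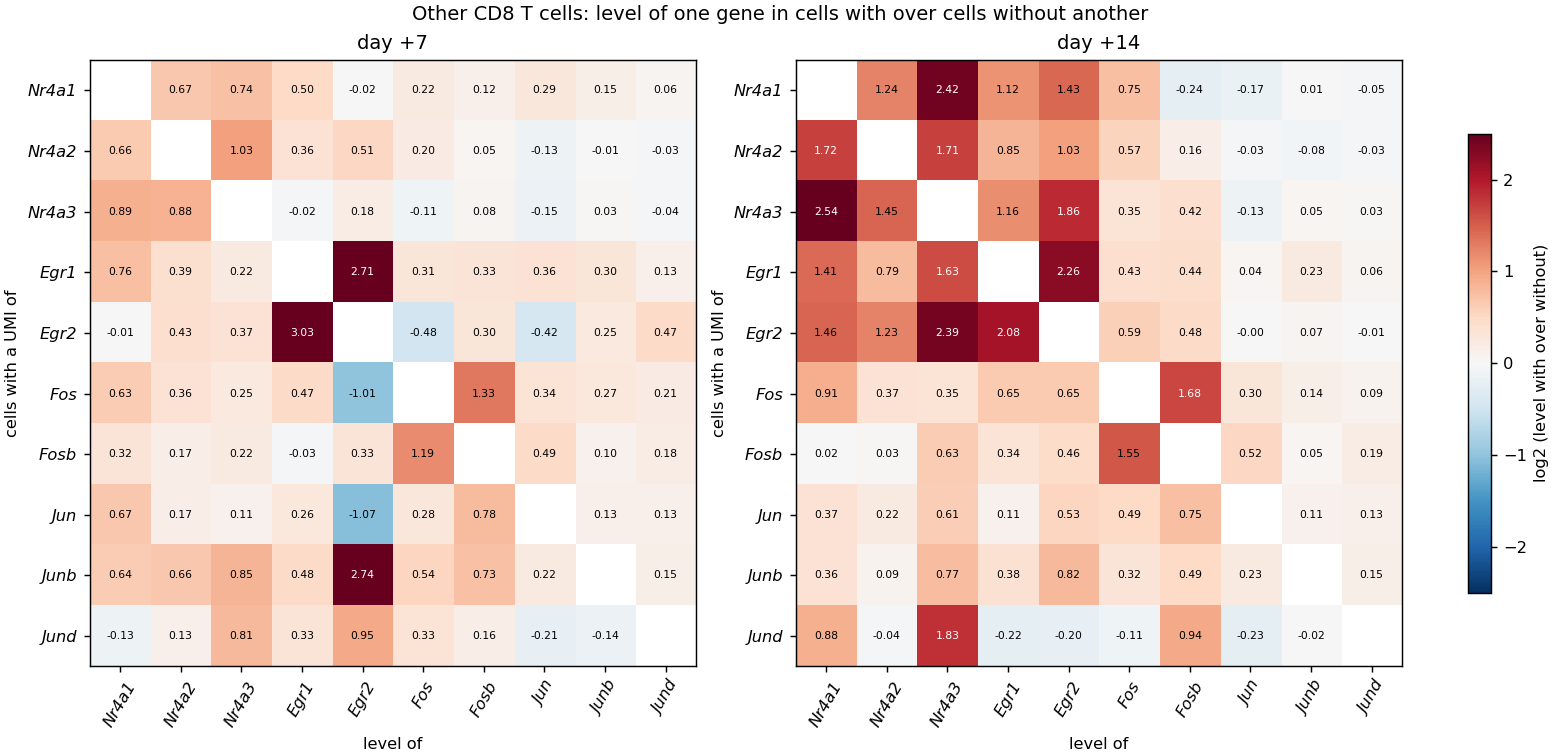
Log2 ratio of the level of each gene (columns) in other CD8 T cells with over those without a UMI of another gene (rows), at day +7 and day +14; red is higher in cells with the row gene. All Nr4a and Egr pairs lie above 0 at day +14, up to 2.54 for Nr4a1 in cells with Nr4a3, and Fos goes with Fosb at both days; squares in the Egr2 column rest on 36 UMIs at day +7.

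Conventional CD4 cells were compared with other CD8 cells within each library. Other CD8 cells lack the chemokine-high cells, whereas no CD4 cell was taken out by its chemokine share. Of the UMIs of all CD8 cells, the chemokine-high gate held 47.1% (day +7) and 51.0% (day +14) for Egr2. It held 7.42% and 29.98% for Egr1, and 12.4% and 30.4% for Nr4a1. Against all CD8 cells the ratios of these 3 genes would therefore be smaller than those given here. Egr2 was 9.84-fold higher in CD4 cells at day +7 (5.11 against 0.519 CPM; 5.61 to 16.9) and 5.22-fold higher at day +14 (16.2 against 3.11 CPM; 3.97 to 6.80). Egr1 was 3.14-fold higher at day +7 (21.5 against 6.84 CPM) and 1.71-fold higher at day +14 (24.4 against 14.2 CPM). Nr4a1 was 1.76-fold and 1.52-fold higher in CD4 cells, and Nr4a2 was lower at each day (0.660-fold and 0.714-fold). Junb was higher in CD4 cells by 1.37-fold at day +7 and 1.999-fold at day +14, and Jund by 1.29-fold and 1.43-fold. Of members that passed the level filter, Egr1 at day +7 reached 2-fold with 1 CPM added (1 of 8, which had passed through CD4 cells alone; 1.41% of all genes) and at day +14 0 of 7 did (2.7% of all genes), Junb lying just under it, while 0 were called lower at either day (0.802% and 0.737%). The chemokines were also higher in conventional CD4 cells, at 807 against 182 CPM in sum at day +7 and 1047 against 371 CPM at day +14, and CD8 cells taken whole gave 382 and 871 CPM. Their part in these ratios was not tested.

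Regulatory T cells, which need steady TCR signals, were too few for a firm comparison, with 20 CD4 cells holding a UMI of Foxp3 at day +7 and 13 at day +14. Foxp3, Ikzf2, Il2ra, Ctla4 and Tnfrsf18 summed to 2040 and 3683 CPM there, against 321 and 454 CPM in conventional CD4 cells. That sum holds Foxp3, which set the gate. Il2ra alone was 5.02-fold and 10.4-fold higher, from 54 and 19 UMIs. In the 13 cells Nr4a1 had 15 UMIs (177 CPM, 98.8 to 291), against 15.8 CPM in conventional CD4 cells, but 9 of those UMIs came from 1 cell, and at day +7 it had 1 UMI in 20 cells. Against conventional CD4 cells, Nr4a1, Nr4a2, Egr1 and Fosb were called lower in the Foxp3+ CD4 gate at day +7 (4 of 8; 7.15% of all genes) and 0 higher (7.66%). All 4 rested on 1 or 2 UMIs, had passed the filter only through conventional CD4 cells, and had upper limits (27.3 CPM, and 35.3 CPM for Egr1) above the conventional CD4 levels, so no difference was detectable at this depth. At day +14 Nr4a1 was called higher (15.5%) and Nr4a2 lower (13.5%) among 9. A broader gate, chosen after the data were seen, took all T cells with a UMI of Foxp3, 198 at day +7 and 89 at day +14, whether or not they were regulatory. They were 2.85% (2.47 to 3.26) and 1.17% (0.94 to 1.44) of T cells. A Foxp3 UMI was also found in 1 of 77 myeloid and 1 of 114 erythroid cells at day +7 and 0 of 98 myeloid cells at day +14. The upper limits of those shares (7.02%, 4.79% and 3.69%) hold the T cell shares. By these shares alone, 1 Foxp3 UMI cannot be told from background in the broader gate. Nr4a1 was at 20.1 CPM in the broader Foxp3+ gate and 10.0 CPM in T cells without Foxp3 at day +7 (log2 ratio 1.00, 0.60 to 1.38), and at 51.2 against 13.6 CPM at day +14 (1.91, 1.49 to 2.30). Nr4a2 did not follow Nr4a1 there, at 38.5 against 36.1 CPM at day +7 (0.09, -0.19 to 0.36) and 62.5 against 103 CPM at day +14 (-0.73, -1.10 to -0.38). Of these Foxp3+ cells, 142 at day +7 and 35 at day +14 held Cd8 and no Cd4 UMIs, and within them the Nr4a1 ratio was 1.29 (0.85 to 1.71) and 1.18 (0.36 to 1.88).

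Myeloid cells left in the sort carried more Fos and, to a lesser extent, more Jun than other CD8 cells, but less Junb, Jund and Nr4a2. Fos measured 62.4 CPM on day +7 and 87.8 CPM on day +14 in the myeloid gate, 4.22-fold (3.24 to 5.41) and 13.3-fold (10.5 to 16.8) above other CD8 cells of the same library. Jun was higher there at day +7 (79.4 against 39.7 CPM; log2 interval 0.67 to 1.31) and 1.36-fold higher at day +14. Nr4a2 was lower than in other CD8 cells, at 14.2 and 21.2 CPM (0.407-fold and 0.242-fold), as were Junb (113 and 119 CPM) and Jund (150 and 140 CPM). Of 5 members that passed the filter at day +7, Fos was called higher (12.7% of all genes) and Nr4a2 and Jund lower (11.9%). At day +14 Egr1 and Fos were called higher (11.7%) and Nr4a2 and Jund lower (13.0%) among 6, Fos having passed the filter there through the myeloid gate alone. In the erythroid gate at day +7 there was 1 UMI of Nr4a1 and 0 of Nr4a3 and Egr2, while Jun (44.2 CPM), Junb (102 CPM) and Jund (150 CPM) were present, and 3 of 5 members were called lower than in other CD8 cells (14.9% of all genes) and 0 higher (17.9%), Nr4a2 among them having passed through other CD8 cells alone.

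Further genes of the same response were read from lists of related genes. Among 12 further family members, Egr3, a target of NFAT like Egr2, was at 0.765 CPM in other CD8 and 49.5 CPM in chemokine-high cells at day +7 (log2 ratio 6.02, 5.49 to 6.55), and at 1.56 and 26.6 CPM at day +14 (4.09, 3.70 to 4.49). Of the 5 that passed the filter, Egr3 and Nab2, a corepressor of Egr proteins, were 2-fold higher in chemokine-high cells at day +7, and Egr3 alone at day +14. Batf, an AP-1 factor of exhausted and effector T cells, differed by 0.14 and 0.11. Nab1, the other Egr corepressor, was 2-fold higher at day +14 than at day +7 in other CD8 cells (56.0 against 128 CPM; 1.19, 1.14 to 1.25). Of 23 other early response genes, 8 of 22 tested at day +7 and 6 of 23 at day +14 were 2-fold higher in chemokine-high cells and 0 lower, with medians of 0.65 and 0.47 against -0.02 and -0.01 over all genes. They included Nfkbid (2.38 and 1.47), Irf4 (1.69 and 1.57) and Myc (1.55 and 1.37), while Klf2, a quiescence factor lost on TCR signaling, was lower in those cells (-0.81 and -0.92) without reaching 2-fold. Of 16 TCR target genes, 10 of 14 at day +7 and 4 of 13 at day +14 were 2-fold higher there and 0 lower, with medians of 1.23 and 0.67, where 1.63% and 0.483% of all genes were higher. Among them were Ifng (2.61 and 1.94), Tnf (3.54 and 2.08) and Rgs16 (3.04 and 1.70). Tnf at both days and Rgs16 and Spry2 at day +7, like Egr3 at both days and Nab2 and Irf4 at day +7, were under 10 CPM in other CD8 cells and passed the filter only through the chemokine-high gate, so these counts are descriptions.

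In other CD8 cells the TCR targets Rgs16, Spry2, Tox and Cd160 were 2-fold higher at day +14, where 1.75% of all genes were. Il2ra, the high-affinity IL-2 receptor chain, was lower (39.3 against 4.798 CPM, log2 ratio -3.04, -3.21 to -2.86), where 1.32% of all genes were. Rgs16 (8.69 against 39.8 CPM) and Spry2 (3.56 against 17.4 CPM) passed the filter through day +14 alone. Il2ra passed it through day +7 alone, so these 3 calls are descriptions. Of 21 other early response genes tested, Cd69 was 2-fold lower (72.6 against 31.9 CPM, log2 ratio -1.19, -1.26 to -1.11), beside the same 1.32% of all genes. Ier2 (-0.55) and Klf2 (-0.66) were below 0 without reaching 2-fold. Of the upstream kinases and factors (9 of 11 tested) and the heat shock genes (8 of 10 tested), 0 reached 2-fold between days in other CD8 cells, and 0 did between the CD8 gates at either day. Of all genes, 1.75% were higher and 1.32% lower between days. Between the CD8 gates 1.63% were higher and 1.10% lower at day +7, and 0.483% and 0.0711% at day +14. In lists this short, counts of 0 cannot be told from those shares. Hspa1a and Hspa1b, which respond to cell stress, were under the filter at 0.211 to 0.374 CPM in other CD8 cells.

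The genes most like each member were taken by Pearson's r of log2 levels, with 1 CPM added, over 8 profiles (4 T cell gates at 2 days) among 9004 genes, as a description of profiles that share libraries. Nr4a2 was closest to Lrmp (0.98), Pdcd1 (0.98) and Hccs (0.98), and Nr4a3 to Nip7 (0.96), Snhg15 (0.96) and Ccl4 (0.95). Egr2 was closest to Tagap (0.98), and Nr4a1 to Cnih2 (0.95). The 8 profiles included the 20 and 13 Foxp3+ CD4 cells, and over the 6 other profiles Nr4a1 was closest to Ccl4 (0.99) and Ccl3 (0.98), which also define the chemokine-high gate, Nr4a2 to 1300002E11Rik (0.99), Entr1 (0.99) and Lrmp (0.98), and Nr4a3 to Srp14, Sco2 and Josd1 (each 0.99), so that of the genes named for Nr4a2 Lrmp alone was kept and of those for Nr4a3 none. Tagap was closest to Egr2 over both sets of profiles (0.99 over 6).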

How the data were processed

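Donor T cells sorted from spleen were profiled with the 10X Genomics platform, with 1 library per day and no replicate, so no p-value could be given. Per the labels and the submitters' processing notes, the authors made the deposited values with Cell Ranger 6.1.2 on mm10, and they are whole-number UMI counts per gene and cell that had not been normalized. The growth protocol in the labels names a sort on day +7 for both libraries, so the day was taken from the sample titles. The members and gene lists were chosen with earlier results of these data known, and the genes named beyond the members are those of the lists that passed 2-fold or that a result turns on, and the 3 most alike per member.

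The counts were summed per gate and divided by all UMIs of the gate. Barcodes with 500 to 7500 genes and at most 15% mitochondrial UMIs were kept. T cells held at least 3 UMIs of the T list, non-T gates at least 10 UMIs of their own list, and a UMI of Cd4, Cd8 genes or Foxp3 set the T cell gates. CPM carry exact Poisson intervals, ratios exact conditional binomial intervals and shares exact Clopper-Pearson intervals, all at 95%. PCR and capture add error that these intervals do not cover. A call was a 2-fold ratio with 1 CPM added, tested where the level averaged over the 2 groups was 10 CPM or higher. Shares of cells were taken after thinning each cell with at least 4000 UMIs to 4000. Cells with fewer UMIs were left out of the thinned shares but not of those with all UMIs. This kept 5743 of 5843 other CD8 cells at day +7 and 5073 of 5520 at day +14. Of conventional CD4 cells it kept 445 of 458 and 495 of 695. Doublets were scored with Scrublet in each library; it called 0 cells in both, so its calls were not used, no cell was removed in the main values and an alternative left out the 433 and 518 highest scores. The scripts were tested on simulated data, and used Python 3.11.15, numpy 2.4.6, scipy 1.17.1, pandas 2.3.3 and scanpy 1.11.5. Promoter sequences came from RefSeq (GRCm38.p6).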

Additional observations from a re-analysis of the deposited data

Results flagged for a closer look

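For 2 genes, gates of the same libraries lay on opposite sides of 0 between days, and the difference between the gates was not tested. The log2 ratio of Junb at day +14 over day +7 was -0.20 in other CD8 T cells and 0.35 in conventional CD4 T cells. That of Fos was -1.17 in other CD8 T cells and 0.49 in the myeloid gate, which held 77 and 98 cells.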

How the results depend on the processing

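No paired analysis was possible because there was 1 library per day. No count reversed. Of 1033 alternative values of a member's log2 ratio, 42 had the other sign than the main value, 9 of them under median-ratio scaling between days: Jun (-0.06), Jund (-0.18) and Nr4a3 (-0.15) in other CD8, Nr4a1 (-0.19) in chemokine-high, Nr4a1 (-0.14), Egr1 (-0.02) and Jund (-0.02) in conventional CD4, and Jun (-0.08) and Jund (-0.11) over all kept cells. Depth limits Egr2 and Nr4a3 in other CD8 cells and every member in the Foxp3+ CD4 gate. The counts below are of members called 2-fold unless said otherwise, given as the main count and then the alternative's, and the cause of a difference was not tested. With median-ratio scaling, higher calls at day +14 went from 2 to 1 and lower ones from 0 to 1 over all kept cells, and from 2 to 1 and from 1 to 2 in chemokine-high cells. With the mean of per-cell CPM, lower calls in chemokine-high cells went from 1 to 0. With a mitochondrial limit of 5%, the Foxp3+ CD4 gate against conventional CD4 cells went from 4 to 2 lower at day +7, and from 1 to 3 higher and 1 to 2 lower at day +14. With mitochondrial and rRNA-associated genes out of the total, myeloid cells against other CD8 cells at day +7 went from 1 to 2 higher. With Cd4 and Cd8 gates at 2 UMIs, conventional CD4 cells went from 2 to 1 higher and 0 to 1 lower between days, against other CD8 cells from 1 to 2 higher at day +7 and 0 to 1 at day +14, and the Foxp3+ CD4 gate from 1 to 2 higher at day +14. With the Foxp3 gate at 2 UMIs it went from 4 to 2 lower at day +7 and 1 to 2 higher at day +14. With the top 2.5% as chemokine-high, that gate went from 2 to 1 higher and 1 to 0 lower between days, and other CD8 cells from 1 to 2 higher. Without the highest Scrublet scores, conventional CD4 against other CD8 cells at day +14 went from 0 to 1 higher. At 1.5-fold, calls between days went from 0 to 2 lower over all cells, 1 to 2 higher in other CD8, 1 to 3 lower in chemokine-high and 0 to 1 lower in conventional CD4 cells. At 1.5-fold, higher calls also went from 1 to 2 (day +7) and 0 to 3 (day +14) for conventional CD4 over other CD8 cells, from 1 to 2 for myeloid cells at day +7, from 0 to 1 (day +7) and 1 to 4 (day +14) for Foxp3+ CD4 cells, whose lower calls at day +14 went from 1 to 2. With no filter on level, higher calls went from 1 to 2 in other CD8 cells between days, and for conventional CD4 over other CD8 cells from 1 to 2 (day +7) and 0 to 1 (day +14), while lower calls at day +14 went from 2 to 4 in myeloid and 1 to 2 in Foxp3+ CD4 cells. With 0.1 CPM added, higher calls went from 1 to 2 in other CD8 cells between days and from 1 to 2 in Foxp3+ CD4 cells at day +14. In alternatives chosen after seeing the data, the more cycling other CD8 cells went from 2 to 0 lower between days (Fos and Fosb), and the less cycling cells went from 5 to 3 higher in the chemokine-high gate at day +7.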
